A study of Homo sapiens with 4 samples.

Results

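Long intergenic non-coding RNA (lincRNA) genes were examined in MDA-MB-468 cells given MS1943 or its vehicle. The members are genes of the GENCODE 29 type lincRNA that held at least 10 estimated reads in each library of at least 1 treatment. Left out by symbol were those starting with SNHG (named as snoRNA host genes), HOX or HOT, and UCA1, NEAT1, MALAT1, MEG3 and H19. Of 56865 genes in the deposited files, 7165 are lincRNA genes; 13 were left out by name, 5930 stayed under the read minimum and 1222 are members. The minimum was reached in all 4 libraries by 859 members, through DMSO only by 281 and through MS1943 only by 82. Because the rule reads the measured values, members of the latter 2 kinds differ by selection in reaching the minimum, which library depth also affects. They are described without a test, while the test is given for the 859. The members just inside the rule, AC245100.1, SIX3-AS1 and AC068491.2, had 10 reads in the lower library of their better treatment. Those just outside it were LINC02271 at 9.99, AC090621.1 at 9.98 and AL136164.2 at 9.90 reads. LINC02001, now named SNHG30, is a member under its GENCODE 29 name.

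MDA-MB-468 is an established human breast cancer line, labelled triple negative, a class without estrogen receptor, progesterone receptor or amplified HER2. Passage 12 cells were seeded in duplicate dishes and given DMSO, for a time the labels do not give (n = 2), or 5 µM MS1943 for 3 days (n = 2). MS1943 is named in the series as a degrader of EZH2, the methyltransferase of Polycomb repressive complex PRC2, which marks silenced genes on histone H3; the stated aim was to profile the effect of the compound on the transcriptome. Poly(A)-selected RNA was sequenced from each dish, so p-values measure the spread between duplicate dishes of 1 line.

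lincRNA genes lie between protein-coding genes and are transcribed by RNA polymerase II; most transcripts are capped, and many are spliced and polyadenylated, but they carry no long open reading frame. Most are present at low levels and stay in the nucleus, where the RNA exosome degrades many of them soon after synthesis. A well-known class starts at the promoter of a coding gene and runs in the other direction, and another class holds the hairpins of microRNAs, which the enzyme Drosha cuts from the primary transcript. A few act on neighbouring genes, on chromatin or as binding platforms for proteins, and for most no function is known.

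The libraries held 47564377 to 71378893 estimated reads, and MS1943 replicate 2 was the shallowest. Members took 0.406% to 0.439% of the reads of a library, and 0.233% to 0.249% once FP671120.3, described below, was set aside. The epithelial markers EGFR, KRT5, KRT17, KRT18, EPCAM and CDH1 were all present at 132 counts per 1000000 reads (CPM, scaled by TMM) or more in every library. PGR had 0 reads in all 4 libraries, ESR1 lay at 3.17 to 5.11 CPM and ERBB2 at 63.3 to 82.0 CPM. Of 9 markers of leukocytes, fibroblasts and endothelium, CD68 rose from 1.08 and 0.829 CPM with DMSO to 32.0 and 29.7 CPM with MS1943. COL1A1 lay at 20.7 to 31.3 CPM, and the other 7, with PTPRC and CD3E at 0.152 CPM or less, stayed under 1 CPM. Any part of these in the results was not tested. EZH2 RNA was at 126 and 117 CPM with DMSO and at 104 and 108 CPM with MS1943; a degrader acts on the protein, so this level does not check the labels. In RNA from whole dishes, fewer cells making a transcript and less transcript per cell cannot be told apart.

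Start regions are printed for 3 of the largest rises (MANCR, PRECSIT and LINC02762) and 2 of the largest falls (MYCNUT and LINC00885). They were chosen among members whose RefSeq start lies within 84 bases of the GENCODE start. The microRNA host MIR9-3HG also met that limit and fell more than LINC00885. Its window holds no match to the motifs marked here and is not printed. Each is the RefSeq window (GRCh38.p14) from 250 bases before to 50 after the start, 5′ to 3′ on the gene's own strand. Capitals mark exact matches, on either strand, to TGANTCA (AP-1), TGACNNNGC (antioxidant response element), the heat shock element (3 alternating TTC and GAA units, each 2 bases apart), TGATGNAA (ATF4 with C/EBP) and CCAAT (NF-Y); AP-1 and antioxidant matches overlap in MANCR and PRECSIT.
MANCR (chr10:4678021-4678320, minus strand): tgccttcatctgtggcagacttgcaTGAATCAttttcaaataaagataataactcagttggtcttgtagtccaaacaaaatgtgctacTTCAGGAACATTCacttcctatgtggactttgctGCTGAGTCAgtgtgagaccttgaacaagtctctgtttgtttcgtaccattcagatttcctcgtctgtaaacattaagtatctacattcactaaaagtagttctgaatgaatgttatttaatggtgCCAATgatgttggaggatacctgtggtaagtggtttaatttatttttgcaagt
PRECSIT (chr13:110870259-110870558, minus strand): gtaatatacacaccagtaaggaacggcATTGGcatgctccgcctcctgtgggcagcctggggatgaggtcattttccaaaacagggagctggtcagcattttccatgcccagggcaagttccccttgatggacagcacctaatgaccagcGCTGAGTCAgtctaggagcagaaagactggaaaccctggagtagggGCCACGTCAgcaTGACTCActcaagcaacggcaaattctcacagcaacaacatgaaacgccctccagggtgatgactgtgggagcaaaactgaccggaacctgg
LINC02762 (chr11:112270499-112270798, plus strand): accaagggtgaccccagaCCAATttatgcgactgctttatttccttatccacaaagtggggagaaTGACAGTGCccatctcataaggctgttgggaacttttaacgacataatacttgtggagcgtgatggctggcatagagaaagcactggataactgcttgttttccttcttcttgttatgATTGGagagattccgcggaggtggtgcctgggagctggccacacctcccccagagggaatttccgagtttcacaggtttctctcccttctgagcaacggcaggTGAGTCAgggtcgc
MYCNUT (chr2:15920149-15920448, plus strand): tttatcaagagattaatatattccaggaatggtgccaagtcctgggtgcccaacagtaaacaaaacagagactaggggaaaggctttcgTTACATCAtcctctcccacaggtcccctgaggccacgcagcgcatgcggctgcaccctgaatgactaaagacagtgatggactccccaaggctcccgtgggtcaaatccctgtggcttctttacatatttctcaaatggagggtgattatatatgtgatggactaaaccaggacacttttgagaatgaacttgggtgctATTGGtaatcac
LINC00885 (chr3:196142386-196142685, plus strand): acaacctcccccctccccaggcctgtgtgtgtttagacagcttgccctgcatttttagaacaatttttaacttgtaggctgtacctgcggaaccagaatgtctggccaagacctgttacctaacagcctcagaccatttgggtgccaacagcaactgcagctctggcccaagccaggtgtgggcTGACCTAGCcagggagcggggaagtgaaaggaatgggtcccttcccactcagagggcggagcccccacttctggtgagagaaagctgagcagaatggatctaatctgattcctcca

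Of the 859 members, 323 have a RefSeq window, and 257 of these windows start within 500 bases of the GENCODE start; the shares are over all 323, so some windows belong to another start of the gene. The AP-1 motif was in 10 of the 61 windows of members that rose (16.4%), in 7 of the 91 of members that fell (7.69%) and in 7.71% of all 35116 windows. The antioxidant motif was in 21.3%, 17.6% and 13.3% of these windows in that order. The heat shock motif, at 0.490% of all windows, was in 2 of the 61 and 0 of the 91, and 1 of those 2 was MANCR. The ATF4 motif was in 3 of 61, 5 of 91 and 3.62% of all windows, the interferon-stimulated response element (GAAA repeated after 2 free bases) in 1 of 61, 5 of 91 and 3.57%, and the cyclic AMP response element TGACGTCA in 3 of 61, 3 of 91 and 1.85%. CCAAT was in 37.7%, 41.8% and 34.6%, the cell cycle motif TTTGAA in 9.84%, 9.89% and 15.2%, and TTTAAA in 8.20%, 8.79% and 12.2%. The endoplasmic reticulum stress element, CCAAT with CCACG after 9 free bases, was in 0 of the 323 and in 0.0769% of all windows. These are matches of letters in fixed windows, and no factor's binding was measured.

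The microRNAs held by host members are shown because the host transcript is what these libraries measure; the mature forms are too short for these libraries and were not measured. Capitals mark the seed, bases 2 to 8, and the sequences are RefSeq's. The hosts that fell hold these:
hsa-miR-9-5p: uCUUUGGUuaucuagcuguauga
hsa-miR-9-3p: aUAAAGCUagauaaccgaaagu
hsa-miR-99a-5p: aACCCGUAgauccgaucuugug
hsa-let-7c-5p: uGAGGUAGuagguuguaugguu
hsa-miR-192-5p: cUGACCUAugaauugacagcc
hsa-miR-194-5p: uGUAACAGcaacuccaugugga
hsa-miR-924: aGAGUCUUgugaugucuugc
miR-9 lies in MIR9-3HG, miR-99a and let-7c in MIR99AHG, miR-192 and miR-194 in MIR194-2HG, and miR-924 in MIR924HG. Hosts that rose hold these:
hsa-miR-4435: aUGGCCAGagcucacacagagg
hsa-miR-200c-3p: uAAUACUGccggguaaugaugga
hsa-miR-141-3p: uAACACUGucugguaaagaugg
hsa-miR-421: aUCAACAGacauuaauugggcgc
hsa-miR-374b-5p: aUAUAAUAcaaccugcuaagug
hsa-miR-374a-3p: cUUAUCAGauuguauuguaauu
miR-4435 lies in MIR4435-2HG and, with the same letters, in CYTOR, miR-200c and miR-141 in MIR200CHG, and miR-421, miR-374b and miR-374a in FTX; miR-22 lies in MIR22HG, which also rose. Some seeds recur in hosts that did not pass the test. MIR222HG holds a pair with 1 seed, LINC-PINT and MIR29B2CHG hold members of the miR-29 family, and MIRLET7BHG holds let-7 forms whose seed is that of let-7c above:
hsa-miR-221-3p: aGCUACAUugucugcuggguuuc
hsa-miR-222-3p: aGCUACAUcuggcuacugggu
hsa-miR-29b-3p: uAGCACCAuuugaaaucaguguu
hsa-miR-29c-3p: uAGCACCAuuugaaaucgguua
hsa-let-7a-5p: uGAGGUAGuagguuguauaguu
hsa-let-7b-5p: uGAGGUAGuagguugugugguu

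With MS1943, 149 of the 859 members rose (17.3%) and 189 fell (22.0%), at an adjusted p of 0.05 (edgeR's quasi-likelihood test, Benjamini-Hochberg over every gene tested). The background was 29.96% higher and 29.4% lower (59.3% in all) among all 19358 genes tested, and 34.1% and 32.97% (67.1% in all) among protein-coding genes, so a smaller share of lincRNA genes passed in either direction. The median log2 fold change was −0.05 over the 859, beside −0.01 over all genes tested. Both MS1943 libraries lay outside the range of the DMSO libraries for all 338 members that passed. At least a 2-fold change was reached by 88 of those that rose and 77 of those that fell.

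Low levels went with low shares passing. Below an average log2 CPM of −1, 14.5% of 242 members passed, and the median standard error of the log2 fold change was 0.40. Above 4, 82.1% of 28 members passed, with a median standard error of 0.07. Protein-coding genes in the same ranges passed at 28.8% and 75.6%. Below 1 the lincRNA share was smaller than the coding share in each of the 3 ranges, it was nearly equal at 61.9% against 62.3% between 1 and 2, and above 2 it was larger. From the lowest range to the highest, divided at −1, 0, 1, 2 and 4, the rises and falls among members were 23 and 12, 23 and 55, 29 and 37, 25 and 48, 36 and 27, and 13 and 10. For coding genes they were 196 and 196, 139 and 162, 152 and 177, 180 and 250, 699 and 962, and 3578 and 3034. No difference in this split was tested. The coding genes carried no minimum of 10 reads in all 4 libraries, so the low ranges are not like for like.

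**Figure D1:**
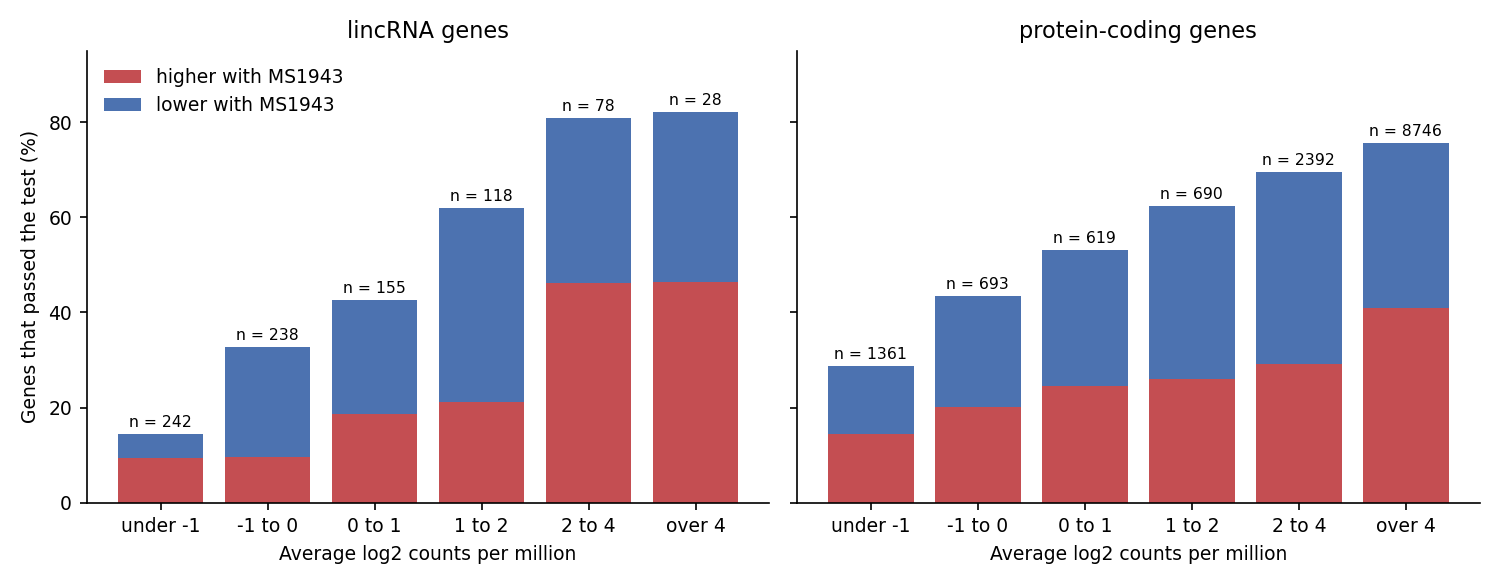
Share of genes that passed the test, in percent of the genes in each range of average log2 CPM, for the 859 lincRNA genes (left) and the tested protein-coding genes (right); red is higher and blue lower with MS1943, and n is the number of genes in the range. The lincRNA share goes from 14.5% in the lowest range to 82.1% in the highest.

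Per length, lincRNA genes were low: the median over members of the mean level was 1.47 TPM (transcripts per 1000000 transcripts), against 16.3 TPM for tested coding genes, and 89 members reached 10 TPM. FP671120.3 stood first at 3742 TPM, with 3948 and 3942 TPM with DMSO and 3562 and 3515 TPM with MS1943. It is a gene of 1 exon at chr21:8210384-8211306 that lies wholly within the RefSeq 18S ribosomal RNA gene RNA18SN2, so its reads cannot be told from ribosomal RNA. Its log2 fold change was −0.02 (SE 0.06, edgeR adjusted p = 0.79), and it passed when scaled by total reads (−0.13, edgeR adjusted p = 0.016).

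The next 9 by TPM were IGFL2-AS1 (208), MIR4435-2HG (160), EPB41L4A-AS1 (113), CRNDE (95.1), CYTOR (85.5), LINC00665 (77.1), PPP1R3B-DT (69.6), LINC00662 (58.2) and PPP1R12A-AS2 (57.9). IGFL2-AS1 owed its place to the treated libraries, at 54.7 and 61.5 TPM with DMSO and 363 and 351 TPM with MS1943. CRNDE went the other way, from 123 and 115 TPM to 66.8 and 75.3 TPM, so with DMSO CRNDE and MIR4435-2HG, at 117 TPM in each library, were not separated. CYTOR and MIR4435-2HG are near-identical copies, and how their shared reads were divided is uncertain. Exons of MIR4435-2HG, EPB41L4A-AS1 and PPP1R12A-AS2 overlap those of the coding genes BCL2L11, EPB41L4A and PAWR in that order. These lie on the other strand, which the kit does not mark, so reads in the overlaps are uncertain too. LINC00665 lay at 87.1 and 87.6 TPM with DMSO and 68.0 and 65.5 TPM with MS1943, yet its log2 fold change in reads was −0.10 and did not pass (edgeR adjusted p = 0.13). It passed with offsets for transcript length (−0.28) and when scaled by total reads (−0.21).

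LINC00707, on the short arm of chromosome 10 (chr10:6779549-6879450), rose most among the members with the read minimum in all 4 libraries and an average log2 CPM of 0 or more. Of its 9 GENCODE 29 transcripts the deposited files list 1, so its values rest on that transcript alone. For LINP1 they list 1 of 4. The same limit holds for other named members, among them LINC02188 (2 of 10), PPP1R3B-DT (11 of 68), CYTOR (14 of 38) and MIR193BHG (3 of 17). The level of LINC00707 was 0.638 and 0.720 CPM with DMSO and 8.62 and 9.44 CPM with MS1943, a 13.2-fold rise (log2 fold change 3.72, SE 0.15, edgeR adjusted p = 1.3e-13). LINP1, named for its part in non-homologous end joining of DNA breaks, lies before it on the same strand (chr10:6709530-6740532). LINP1 went from 0.851 and 0.560 CPM to 3.66 and 3.76 CPM (5.29-fold). Neither set of libraries overlapped, and PRKCQ, the nearest tested coding gene of both and a protein kinase C, did not pass the test at 4.54 and 4.41 CPM with DMSO and 3.73 and 3.50 CPM with MS1943.

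MANCR, the mitotically associated long non-coding RNA (chr10:4650185-4678154), had the lowest starting level of the 12 largest rises, 0.232 and 0.341 CPM, and reached 2.14 and 2.09 CPM (7.26-fold). Its exons overlap those of LINC00705, so reads in the overlap are uncertain. PRECSIT, named as a p53-regulated RNA that activates STAT3, is a gene of 1 exon at chr13:110863987-110870251. It went from 1.02 and 1.09 CPM to 8.59 and 9.11 CPM (8.35-fold). IGFL2-AS1 (chr19:46189166-46203083) was the most abundant of the 12 in reads, at 8.08 and 8.77 CPM with DMSO and 58.2 and 60.1 CPM with MS1943 (log2 fold change 2.81, SE 0.07, edgeR adjusted p = 1.1e-16). Its leading isoform took 41.4% to 48.7% of its reads in all 4 libraries, and the next took 33.0% to 37.9%.

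The other rises were LINC00639 (chr14:38749339-38948273), LINC02967 (chr20:24931840-24932983), AC009093.4 (chr16:29262273-29264479), LINC02613 (chr2:38406719-38515740), AL121772.1 (chr20:25239007-25245229), LINC02762 (chr11:112270749-112362534) and AC138512.1 (chr16:88234785-88302511). LINC00639, whose exons overlap those of AL132994.1, went from 0.608 and 0.600 CPM to 5.15 and 5.68 CPM. LINC02967 went from 3.19 and 3.31 CPM to 25.03 and 24.5 CPM. In each of the 7 both MS1943 libraries lay above both DMSO libraries, with rises of 5.29-fold to 8.93-fold.

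**Figure D2:**
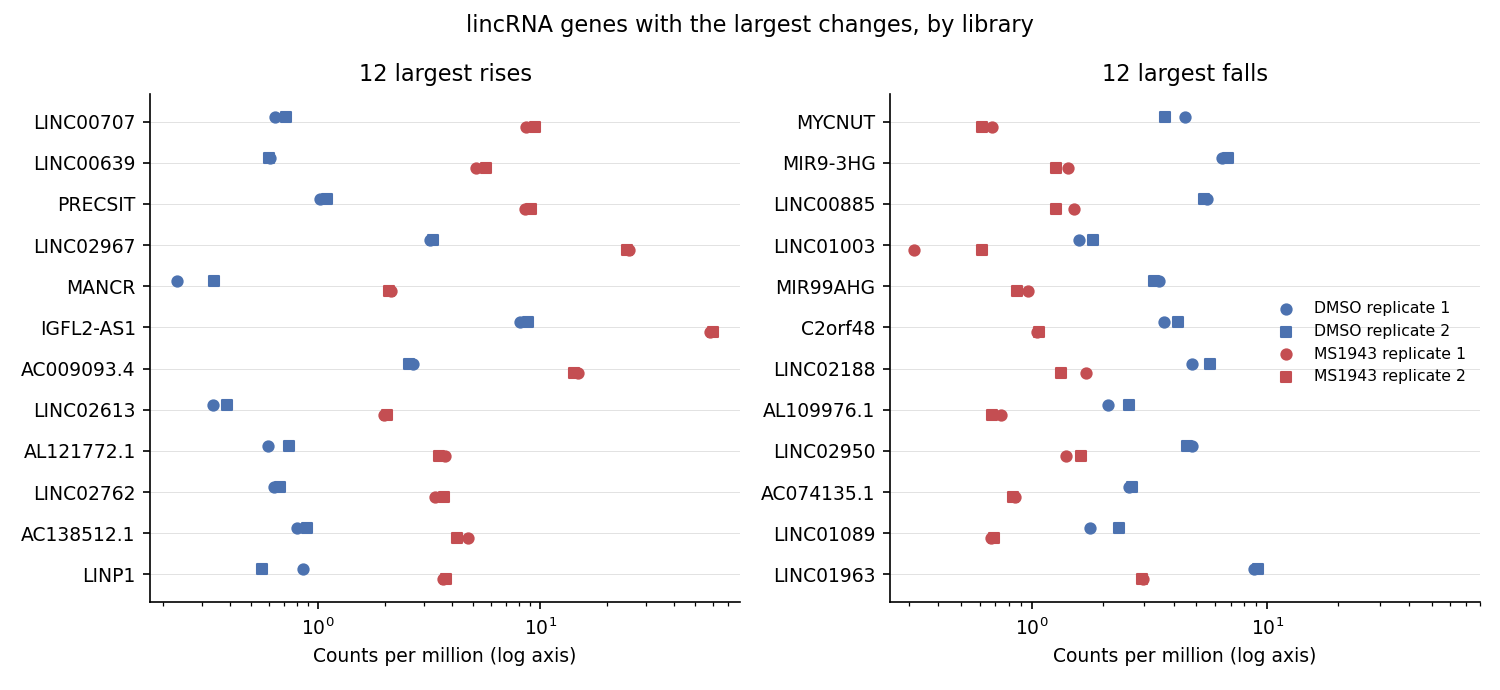
CPM (log axis) of the 12 lincRNA genes with the largest rises (left) and the 12 with the largest falls (right) among those that passed at an average log2 CPM of 0 or more; each point is 1 library, blue for DMSO and red for MS1943. The points of the treatments do not overlap in any row, and LINC00707 goes from under 1 CPM to about 9 CPM.

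MYCNUT, the MYCN upstream transcript (chr2:15920399-15936017), fell most within the same limits. Its level was 4.48 and 3.68 CPM with DMSO and 0.677 and 0.612 CPM with MS1943, 6.26-fold lower (log2 fold change −2.65, SE 0.19, edgeR adjusted p = 5.3e-10). Its exons overlap those of MYCNOS on the other strand, and the kit does not mark strand. C2orf48 (chr2:10141382-10211725), on the same chromosome arm, went from 3.65 and 4.19 CPM to 1.05 and 1.07 CPM (3.69-fold lower).

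Both largest falls among microRNA hosts are long spliced transcripts. MIR9-3HG (chr15:89361579-89398487) went from 6.44 and 6.78 CPM to 1.43 and 1.27 CPM (4.87-fold lower). MIR99AHG, which spans chr21:15928296-16645065, went from 3.46 and 3.31 CPM to 0.961 and 0.862 CPM (3.70-fold lower). All DMSO libraries of both hosts lay above all MS1943 libraries.

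LINC01963 (chr2:216217045-216220192) was the most abundant of the 12 falls, with 8.79 and 9.14 CPM against 2.96 and 2.95 CPM (3.03-fold lower). LINC01003 (chr7:152463786-152465549) lay at 0.316 and 0.612 CPM with MS1943, against 1.58 and 1.81 CPM with DMSO. The other falls were LINC00885 (chr3:196142636-196160890), LINC02188 (chr16:86710122-86742083), AL109976.1 (chr20:3239705-3245382), LINC02950 (chr8:8456909-8461337), AC074135.1 (chr19:23075201-23100361) and LINC01089 (chr12:121795267-121803906), at 3.08-fold to 3.92-fold lower. AC074135.1 shares exon sequence with the zinc finger gene ZNF730 and LINC01089 with RHOF, so their reads are uncertain.

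**Figure D3:**
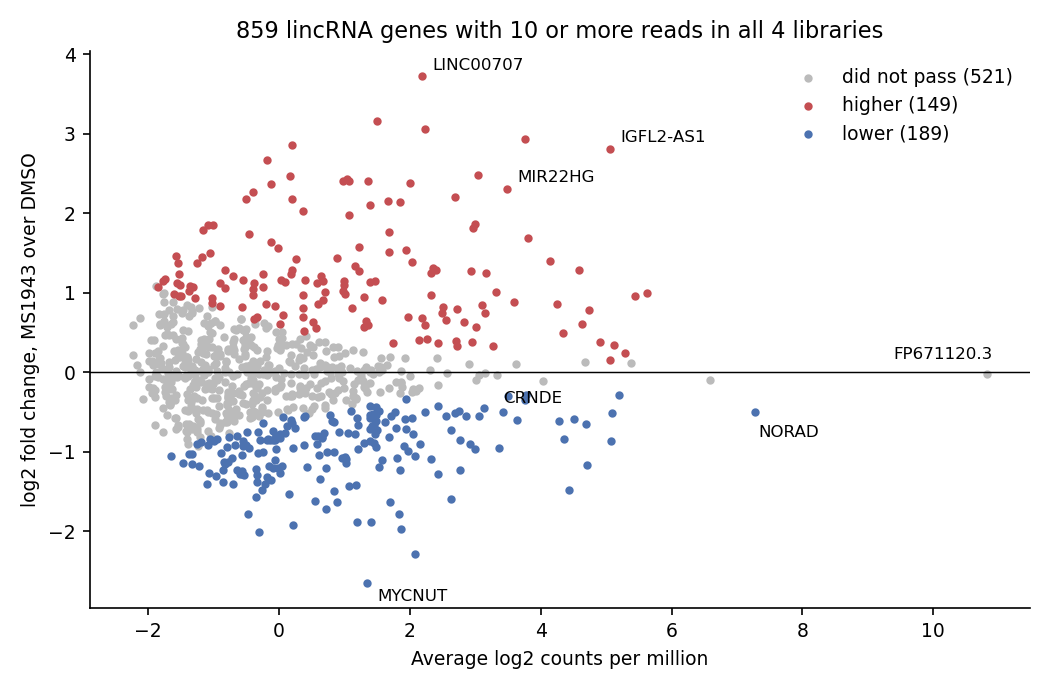
log2 fold change of MS1943 over DMSO against average log2 CPM for the 859 members with 10 or more reads in all 4 libraries; red points rose (149), blue points fell (189) and grey points did not pass (521). FP671120.3 lies far to the right of the others near no change, and changes that passed reach smaller sizes to the right.

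Among lincRNA genes with an established name in the literature, 36 symbols were listed: 19 are members in all 4 libraries, 10 have another gene type in GENCODE 29 and 7 stayed under the read minimum. Of the 19, 6 rose, 7 fell and 6 did not pass, beside 29.96% higher and 29.4% lower among all genes tested, so neither count stands far from the background. NORAD, an abundant RNA that binds Pumilio proteins and helps keep chromosomes stable (chr20:36045622-36050960), fell. It lay at 180 and 181 CPM with DMSO and 126 and 130 CPM with MS1943 (log2 fold change −0.50, SE 0.05, edgeR adjusted p = 1.7e-07).

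MIR22HG, host of the microRNA miR-22 (chr17:1711493-1717174), rose most of the 19. It went from 3.54 and 4.16 CPM to 18.97 and 19.3 CPM (4.95-fold; edgeR adjusted p = 1.8e-13). Its exons overlap MIR22 itself, and its leading isoform took 77.1% to 88.4% of its reads. PVT1, which lies beyond MYC on chromosome 8 (chr8:127794533-128101253), went from 5.21 and 5.65 CPM to 12.7 and 13.1 CPM (2.37-fold).

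FTX and JPX are non-coding genes of the X inactivation centre, lie on opposite strands and share exon sequence, so unstranded reads cannot be told apart where they overlap. FTX (chrX:73946555-74293574) went from 6.19 and 7.26 CPM to 13.6 and 13.4 CPM. JPX (chrX:73944184-74070408) went from 6.46 and 6.67 CPM to 9.52 and 9.86 CPM, and its call ended with offsets for transcript length (log2 fold change 0.26). MIR4435-2HG went from 29.3 and 29.997 CPM to 56.9 and 58.2 CPM, and its copy CYTOR, named as a cytoskeleton regulator, from 19.5 and 20.2 CPM to 33.7 and 34.6 CPM. Both rose, with the uncertainty of their shared reads, and of the overlap of MIR4435-2HG with BCL2L11, given above.

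CRNDE (chr16:54845189-54929189), named for its level in colorectal tumours, went from 32.9 and 30.1 CPM to 19.2 and 21.1 CPM (1.57-fold lower). CASC15 (chr6:21664772-22368328) fell from 12.0 and 12.9 CPM to 8.90 and 8.67 CPM. Besides MIR99AHG and NORAD, LINC00324 fell 2.46-fold, LINC00667 1.22-fold and TP53TG1 1.44-fold. The call on TP53TG1 ended with DESeq2 (log2 fold change −0.52, as in the edgeR fit) and without DMSO replicate 1 (−0.41). LINC-PINT, MIR210HG, MIR193BHG, MIRLET7BHG, MIR222HG and MIR503HG did not pass, and all 6 lay under 2 CPM in every library. Their log2 fold changes were −0.02, 0.06, 0.33, −0.18, 0.54 and 0.78. The symbol LINC-PINT is also carried by another gene, typed as a processed transcript, which is not a member. The LINC-PINT values here are those of the lincRNA gene alone.

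Taking the 16 members named as microRNA hosts, 3 rose, 4 fell and 9 did not pass. Apart from MIR22HG, MIR4435-2HG, MIR9-3HG and MIR99AHG, those that passed were MIR200CHG (0.744 and 0.853 against 1.10 and 1.36 CPM), MIR194-2HG (1.29 and 1.501 against 0.796 and 0.938 CPM) and MIR924HG (8.70 and 8.40 against 5.39 and 6.34 CPM). The first of these rose and the others fell. MIR200CHG was near the threshold: its call ended in 6 of 9 alternatives, among them without DMSO replicate 1 (log2 fold change 0.51) and without MS1943 replicate 2 (0.44). MIR194-2HG lost its call with DESeq2 (−0.69), without DMSO replicate 2 and without MS1943 replicate 1 (−0.59 in each of the latter).

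Members named as divergent transcripts (symbols ending in -DT), which start beside a coding gene and run away from it, gave 11 rises (10.8%) and 33 falls (32.4%) among 102, with a median log2 fold change of −0.30. Beside the 29.96% and 29.4% of all genes tested, the share that fell was near the background and the share that rose was below it. Of all 859 members 17.3% rose and 22.0% fell. Beside these, the share of -DT members that fell was higher and the share that rose was lower. Members of 1 exon gave 31 rises (13.5%) and 59 falls (25.8%) among 229. Members of 2 or more exons gave 118 (18.7%) and 130 (20.6%) among 630. Genes with a LINC number were balanced at 51 and 49 of 232 (22.0% and 21.1%). Those with a clone-based name only gave 53 and 69 of 373 (14.2% and 18.5%). Among the 625 members with no exon overlapping another gene, 101 rose (16.2%) and 138 fell (22.1%). These groups overlap one another, and no difference between them was tested.

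Each member was then set beside its nearest tested protein-coding gene within 1000000 bases, which 823 of the 859 had; 732 distinct coding genes serve, and for 110 members an untested coding gene lay nearer. In 234 pairs both the lincRNA gene and the neighbour passed the test, in the same direction in 157 (67.1%) and in opposite directions in 77. For protein-coding genes and their nearest coding neighbours, counted from both sides where each is the other's nearest, the same direction was found in 3763 of 6548 pairs (57.5%). In 337 pairs the neighbour alone passed and in 94 the lincRNA gene alone.

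The share differed with orientation, a difference that was not tested. On the same strand without overlap, 80 of 102 pairs that both passed shared a direction (78.4%), against 56.7% for coding pairs so placed. The share was 79.3% where the lincRNA gene lay beyond the coding gene's end and 77.3% where it lay before its start, and 78.9% among members with no exon overlap. Head to head, with starts within 5000 bases on opposite strands, it was 35 of 55 (63.6%) against 60.1% for coding pairs. Converging pairs gave 13 of 26, against 56.5% for coding pairs, and pairs diverging from farther apart 8 of 21, against 57.7%. Where the genes overlapped it was 13 of 14 on the same strand, where reads can be shared, and 8 of 16 on opposite strands. Coding pairs so placed gave 67.1% and 52.4%. lincRNA genes lay at lower levels than coding genes, and the median same-strand gap was 24318 against 11286.5 bases for coding pairs. The shares of member and coding pairs, here and over all orientations, are thus not like for like. Across pairs, Pearson's r between the log2 fold changes was 0.35 over 349 same-strand pairs, 0.30 over 182 head-to-head pairs and −0.19 over 81 converging pairs. For coding pairs so placed r was 0.21, 0.22 and 0.15. Pairs share the 4 libraries and some share a neighbour, so r is a description only.

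**Figure D4:**
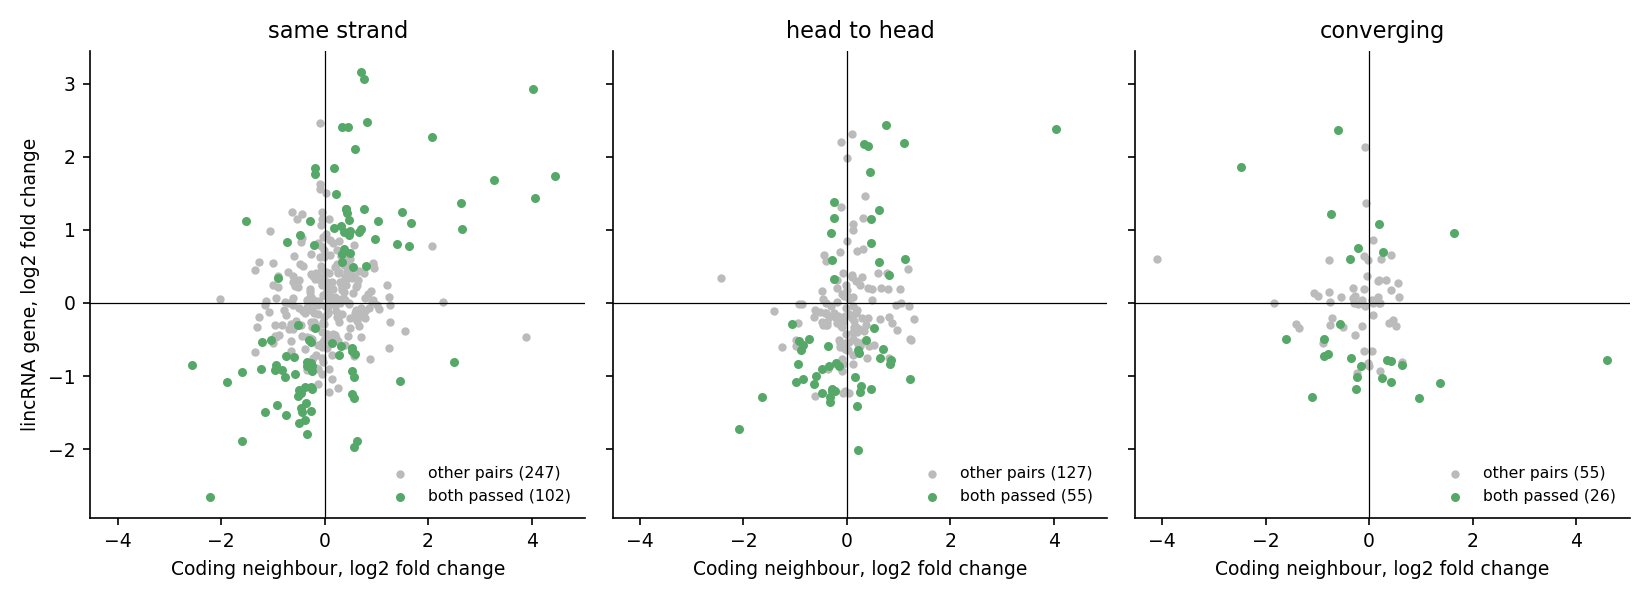
log2 fold change of the lincRNA gene (vertical) against that of its nearest tested coding gene (horizontal) for pairs on the same strand, head to head and converging; green pairs are those in which both genes passed the test. On the same strand 80 of the 102 green pairs lie in the lower left or upper right part of the panel, and among converging pairs 13 of 26 do.

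The change in the ratio of a lincRNA gene to its neighbour tells whether they moved by different amounts. By limma with a trend over all 19207 pairs, the ratio rose for 151 members and fell for 178, 40.0% of the 823, beside a background of 26.5% higher and 27.4% lower (53.9% in all). The background pairs carried no minimum of 10 reads in all 4 libraries. The lincRNA gene's own counting error enters this ratio, so at these levels a ratio that did not pass leaves wide room.

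A few lincRNA genes moved with a well-known neighbour. MYCN, a MYC family transcription factor 4547 bases beyond MYCNUT on the same strand, fell from 51.8 and 48.9 CPM to 10.8 and 10.8 CPM. The MYCNUT to MYCN ratio changed by −0.38 on the log2 scale (SE 0.19, limma adjusted p = 0.12). RRM2, a ribonucleotide reductase subunit 9963 bases before C2orf48, fell from 324 and 318 CPM to 107 and 105 CPM, and the ratio changed by −0.25 (SE 0.17, limma adjusted p = 0.25). MYC, 53099 bases before PVT1, rose from 96.3 and 93.1 CPM to 264 and 271 CPM, and the ratio changed by −0.25 (SE 0.10, limma adjusted p = 0.058). In all 3 pairs the lincRNA gene and the coding gene on its strand went the same way, and the ratio did not pass.

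CASC15 and SOX4, a transcription factor gene 66153 bases from it, both fell but by different amounts. SOX4 went from 208 and 206 CPM to 99.6 and 102 CPM, and the ratio of CASC15 to it rose by 0.54 (SE 0.09, limma adjusted p = 0.00067). IRX5, a homeobox gene whose start lies 1673 bases from that of CRNDE on the other strand, fell from 44.6 and 49.1 CPM to 24.1 and 26.7 CPM, with a ratio change of 0.24 that did not pass (SE 0.09, limma adjusted p = 0.0505). AL109976.1 and SLC4A11, a membrane transporter gene with its start 146 bases away, fell together: SLC4A11 went from 154 and 153 CPM to 36.6 and 35.3 CPM, and the ratio changed by 0.41 (SE 0.21, limma adjusted p = 0.13).

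For other named members the lincRNA gene moved without a like move of the neighbour. POLG, the mitochondrial DNA polymerase beside MIR9-3HG, rose (63.4 and 65.5 to 90.1 and 86.3 CPM) while the host fell, and the ratio fell by 2.72 (SE 0.14, limma adjusted p = 1.8e-07). USP25, a deubiquitinase gene beside MIR99AHG, rose from 65.5 and 63.2 CPM to 96.6 and 102 CPM, and the ratio fell by 2.50. The neighbour of IGFL2-AS1, IGFL1, fell from 0.805 and 0.786 CPM to 0.286 and 0.219 CPM, and the ratio rose by 4.36. IGFL1 is thus a gene of low level. IGFL2, the coding gene in the symbol of IGFL2-AS1, is not its nearest tested coding gene, and IGFL2 rose (log2 fold change 1.72). KMT2C beside LINC01003 and ATL2 beside LINC02613 did not pass, with log2 fold changes of −0.05 and −0.09.

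PRECSIT and ANKRD10 on the same strand both rose, ANKRD10 from 59.4 and 63.5 CPM to 99.2 and 109 CPM, and the ratio rose by 2.27. LINC02967 and CST7, the cystatin F gene, both rose, CST7 from 0.0759 and 0.147 CPM to 1.99 and 1.77 CPM; the ratio changed by −0.86 (limma adjusted p = 0.054). It passed with voom weights (−1.12), with a prior count of 0.5 (−1.12) and without DMSO replicate 2 (−1.18). Of the 24 named rises and falls, the ratio passed for 19, and the 5 for which it did not were LINC02967, MYCNUT, C2orf48, AL109976.1 and AC074135.1.

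The 8 head-to-head pairs with the smallest adjusted p of the lincRNA gene were led by MIR22HG and WDR81. WDR81 did not pass, at 26.2 and 28.0 CPM with DMSO and 28.3 and 29.9 CPM with MS1943, and the ratio rose by 2.21 (SE 0.10, limma adjusted p = 7.1e-08). SFTA1P went from 2.58 and 2.23 CPM to 9.93 and 12.2 CPM, while CELF2, which encodes an RNA-binding protein, did not pass at 3.45 and 3.85 against 3.46 and 3.30 CPM. PPP1R3B-DT went from 13.5 and 13.9 CPM to 24.5 and 24.96 CPM, while PPP1R3B, a glycogen-targeting subunit of protein phosphatase 1, had a log2 fold change of 0.00 (SE 0.07). These 3 rose beside a coding gene for which no change passed.

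KLHDC7B-DT and KLHDC7B rose together, the coding gene by more. KLHDC7B-DT went from 1.46 and 1.27 CPM to 7.23 and 6.83 CPM and KLHDC7B from 1.69 and 1.95 CPM to 30.2 and 30.1 CPM, so the ratio fell by 1.69 (SE 0.17, limma adjusted p = 1.4e-05). BAIAP2-DT fell from 44.6 and 41.5 CPM to 24.7 and 22.6 CPM. BAIAP2 also fell, by less, from 64.7 and 62.8 CPM to 50.2 and 49.9 CPM (log2 fold change −0.35, edgeR adjusted p = 2.1e-05). Their ratio changed by −0.52 (SE 0.07, limma adjusted p = 0.00016). ZNF295-AS1 with ZBTB21 and AL121772.1 with PYGB, the brain glycogen phosphorylase, rose together, the lincRNA gene by more in each (ratio changes 1.70 and 1.64). The exons of ZNF295-AS1 overlap those of ZBTB21 on the other strand, which the kit does not mark, so reads of that pair are uncertain.

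The 37 listed genes of nuclear RNA decay and 3′ end processing, which act on many non-coding transcripts, gave 11 rises, 16 falls and 10 that did not pass, with a median log2 fold change of −0.03. These are 29.7% and 43.2%, beside 34.1% and 32.97% of coding genes. The rises were EXOSC1 (16.2 and 15.6 to 26.6 and 24.2 CPM), EXOSC8, EXOSC10, EXOSC7, EXOSC2 and the nuclease DIS3 of the exosome, the helicase MTREX (log2 fold change 0.33) and its partner ZCCHC8 (0.50), and INTS6, INTS11 and XRN2. The exosome subunits EXOSC3, EXOSC4, EXOSC5 and EXOSC6 and the helpers RBM7 and ZFC3H1 did not pass. The falls included the exosome cofactors MPHOSPH6 (61.1 and 54.7 to 33.0 and 34.8 CPM) and C1D, the core subunit EXOSC9, the termination factor PCF11 (−0.71) and the polyadenylation factor CPSF4 (−0.47). The cap-binding genes NCBP1 and NCBP2 and SRRT also fell. So did INTS1, INTS3 and INTS9 (log2 fold changes −0.17, −0.27 and −0.24), which share the INTS symbol with INTS6 and INTS11 above. The remaining falls were CPSF3, PABPN1, WDR82, SAFB and ALYREF. The number of rises was 7 when scaled by total reads and 7 with offsets for transcript length.

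Of the members that reached 10 reads in both libraries of 1 treatment only, 281 did so with DMSO and 82 with MS1943. The deepest library is a DMSO library and the shallowest an MS1943 library, so the minimum in raw reads favours DMSO. With a minimum of 0.210 CPM (by total reads, without TMM) in every library, chosen after seeing the data, 178 passed through DMSO only, 98 through MS1943 only and 770 in all 4. Most of these genes were not silent with the other treatment: 170 of the 281 and 55 of the 82 had 5 or more reads in both of the other libraries.

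Among those reached with MS1943 only, AL121956.1 had most reads, 3 and 17 with DMSO and 139 and 113 with MS1943. LNCAROD had 5 and 6 reads against 122 and 95. Its nearest tested coding gene, DKK1, a secreted inhibitor of WNT signalling 132832 bases away, lay at 5.45 and 5.64 CPM with DMSO and 55.6 and 64.0 CPM with MS1943. AJ009632.2 had 10 and 7 reads against 128 and 67, LINC00520 had 2 and 2 against 89.0 and 73.1, and LINC00365 had 7 and 12 against 84 and 48. LINC02889, whose nearest tested coding gene is the aryl hydrocarbon receptor gene AHR, had 2 and 0 reads against 74 and 50; 0 reads in that library of 71378893 reads allow up to 3, or 0.0400 CPM, counting error only. All MS1943 libraries of these 6 genes held at least 48 reads and all DMSO libraries 17 or fewer.

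With DMSO only, AC046168.1 had most reads, 86 and 106 against 13 and 5. LINC01447, whose nearest tested coding gene is TNS3 (347 and 347 CPM against 126 and 116 CPM), had 66.7 and 73.4 reads against 12.9 and 7.69. AC006504.1 had 38.4 and 69.8 against 30.3 and 8.003, AC091078.1 had 37.8 and 66.9 against 19.3 and 9.92, FP236315.1 had 44.9 and 57.9 against 12 and 8, and LINC02916 had 52.6 and 43.9 against 14.6 and 4.22. In all 6 only MS1943 replicate 2, the shallowest library, was under the minimum.

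**Figure D5:**
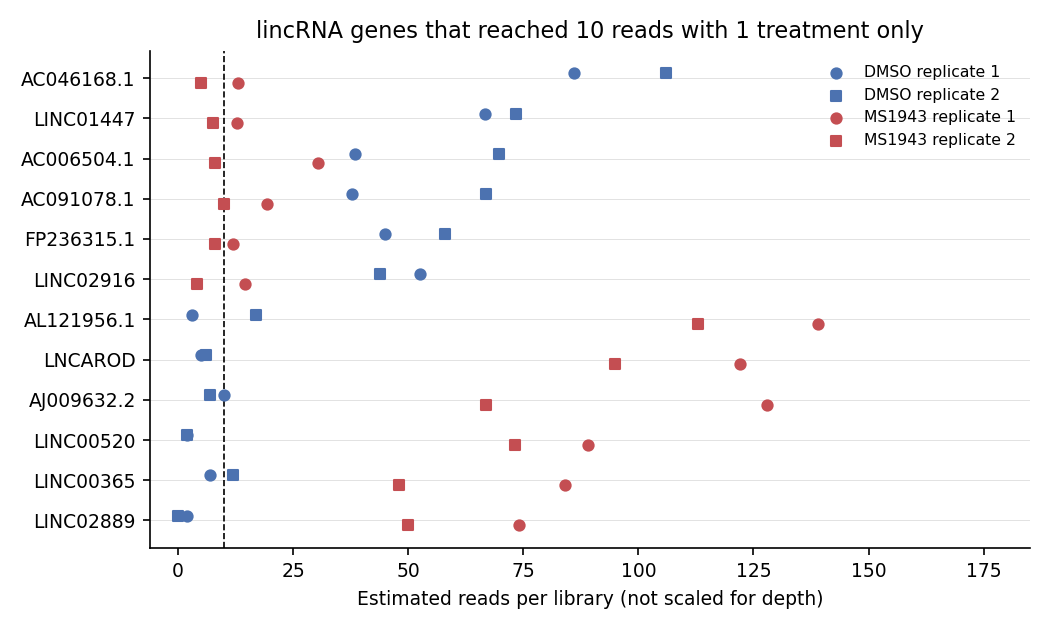
Estimated reads per library, not scaled for depth, of the 6 lincRNA genes with most reads among those that reached the minimum with DMSO only (upper 6 rows) and with MS1943 only (lower 6 rows); the dashed line is the minimum of 10 reads. In the upper rows MS1943 replicate 1 lies right of the line and replicate 2 left of it.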

How the data were processed

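Poly(A)-selected RNA of 4 libraries, 2 per treatment, was made into libraries with Illumina's TruSeq kit v2, which does not mark strand, per the labels' protocols. The tools in the submitters' processing notes are Salmon 0.9.1, DESeq2 and R 3.4.3, on hg38; the annotation release is not given in the sources used here. Salmon's estimated counts per transcript, which need not be whole, are in the deposited files, per the file headers. The deposited TPM are its abundances per length, also per the file headers. Salmon divides reads among similar transcripts by a model, and that error is not in the files.

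Of 197653 transcripts, 193505 matched GENCODE 29; the 4148 others held 0.482% to 0.496% of the reads. For 90 of the 1222 members the deposited files list fewer transcripts than GENCODE 29. Estimated counts were summed per gene and rounded. edgeR 4.0.16 in R 4.3.3 gave the quasi-likelihood test (TMM, filterByExpr, Benjamini-Hochberg over 19358 genes, threshold 0.05), and CPM are TMM-scaled. A gene's SE is that of its log2 fold change. limma 3.58.1 with a trend tested the log2 CPM ratio (prior count 2) to the nearest tested coding gene. DESeq2 1.42.0 was an alternative. Both fits were tested on simulated data. Coordinates are GENCODE 29's on hg38, counted from 1.

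Named genes are the 12 largest rises and 12 largest falls past the threshold at average log2 CPM 0 or more with no overlap of the treatments, the 10 members highest in TPM, the 6 members with most reads reaching the minimum through each treatment only, 36 listed symbols, microRNA hosts, and 8 head-to-head pairs, of which 1 is not reported here. SOX4, IRX5, MYC and other coding genes are their neighbours. The members and all lists were chosen with earlier results of these data known.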

Additional observations from a re-analysis of the deposited data

How the results depend on the processing

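Of the 338 member calls, 223 were kept with DESeq2 (106 higher, 117 lower), 336 with RLE scaling, 313 when scaled by total reads (124 higher, 210 lower), 329 with no filter on low counts and 274 with offsets for transcript length, where 1 changed sign. Scaling by total reads moved the median log2 fold change of all genes from −0.01 to −0.12 and that of the members to −0.16. A minimum of 30 reads left 455 members, of which 107 rose and 122 fell. Leaving out each library in turn gave 122 to 144 rises and 150 to 172 falls among members, 109 to 135 and 133 to 154 for ratios to the neighbour, and 8 to 12 and 15 to 17 for the decay list. The decay list's rises were 7 when scaled by total reads and 7 with length offsets; the cause was not tested. LINC00662 passed (log2 fold change 0.15, edgeR adjusted p = 0.043), but its call ended in 8 of 9 alternatives (0.03 to 0.15), so it is not described as changed.

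Signs turned for 6 values that did not pass. LINC-PINT was at 0.14 with length offsets and ranged from −0.32 to 0.37 as each library was left out. MIR210HG was at −0.054 scaled by total reads and −0.31 with length offsets, and ranged from −0.38 to 0.34. Over the same omissions MIR193BHG ranged from −0.13 to 0.94, MIRLET7BHG from −0.51 to 0.27, MIR29B2CHG from −0.091 to 0.70, and the ratio of AC074135.1 to ZNF730 from −0.045 to 0.046. MIR29B2CHG passed without DMSO replicate 2 (0.70). No paired analysis was possible because the labels give the libraries no replicate numbers. The minimum of 10 reads and the depth of the shallowest library limit what could be tested: a gene at the minimum there is at 0.219 CPM.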
